A study of Mus musculus with 2 samples.

Results

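The C/EBP transcription factor family was followed through the cells of 2 mouse livers by its 6 members Cebpa, Cebpb, Cebpd, Cebpe, Cebpg and Ddit3. The members were the rows of the gene table that carried 1 of these symbols, which gave 7 rows of 32285, since Ddit3 was listed under 2 identifiers. The second Ddit3 identifier (ENSMUSG00000116429) held 0 UMIs in all barcodes and the 6 other rows held all counts of the family.

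C/EBP proteins are basic leucine zipper factors that bind DNA as pairs, with themselves, with each other or with ATF and related partners, so that the proportions of the members in a cell set which pairs can form. Cebpa is known as a factor of mature hepatocytes and of myeloid differentiation, Cebpb and Cebpd as factors raised by inflammatory signals in the acute phase response, and Cebpe as a factor of late granulocytes. Cebpg has no activation domain of its own and works through its partners, and Ddit3, better known as CHOP, is the member induced by the integrated stress response, which blocks binding of its partners to the usual C/EBP sites.

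The 6 members lie on 5 chromosomes (GRCm38, GENCODE annotation M21). Cebpa is at chr7:35119293-35121928 on the plus strand (ENSMUSG00000034957) and Cebpg at chr7:35046422-35056573 on the minus strand (ENSMUSG00000056216), on the same stretch of chromosome 7. Cebpb is at chr2:167688915-167690418 on the plus strand (ENSMUSG00000056501), and consists of 1 exon. Cebpd is at chr16:15887286-15891031 on the plus strand (ENSMUSG00000071637), Cebpe at chr14:54710360-54712174 on the minus strand (ENSMUSG00000052435) and Ddit3 at chr10:127290774-127296288 on the plus strand (ENSMUSG00000025408). Genes on the opposite strand overlap Cebpa (Gm45091), Cebpb (Tmem189), Cebpd (Spidr), Cebpg (Gm45095) and Ddit3 (Gm4189 and Mars), and no gene overlaps Cebpe. On the same strand, Gm44836 and Gm45094 lie within Cebpg, and the second Ddit3 model lies within the first. The sources used here do not state whether counting used strand, so reads of an overlapping gene may be part of these counts.

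The 250 bases before the start of the 2 members on which the results turn most, Cebpa and Cebpb, are shown with the letters of 2 short motifs in capitals (RefSeq starts, GRCm38.p6). TTGCG, the core of a C/EBP site, is in capitals in Cebpa, where family members are known to act on their own gene, and TGACG, the core of a CREB or ATF site, is in capitals in Cebpb, where a match on the other strand reads CGTCA. The stretch of Cebpa is chr7:35119043-35119292 and that of Cebpb is chr2:167688665-167688914, both on the plus strand.
Cebpa: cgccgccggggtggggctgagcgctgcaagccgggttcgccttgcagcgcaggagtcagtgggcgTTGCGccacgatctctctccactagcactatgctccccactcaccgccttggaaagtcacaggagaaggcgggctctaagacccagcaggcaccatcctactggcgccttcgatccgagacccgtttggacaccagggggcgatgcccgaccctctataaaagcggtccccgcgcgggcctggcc
Cebpb: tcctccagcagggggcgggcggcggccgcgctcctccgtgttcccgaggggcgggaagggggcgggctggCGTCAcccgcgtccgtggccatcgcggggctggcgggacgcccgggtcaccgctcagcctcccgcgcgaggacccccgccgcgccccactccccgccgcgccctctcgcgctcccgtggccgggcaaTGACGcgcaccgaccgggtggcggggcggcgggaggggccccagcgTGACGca
Cebpa held TTGCG on its own strand, 185 to 181 bases before the start. Cebpb held TGACG 3 times, at 53 to 49 and 7 to 3 bases before the start on its own strand, and at 180 to 176 bases before it on the other strand. Read on both strands, TTGCG was in 14.5% and TGACG in 17.8% of the 32851 promoter stretches of this length in the table. TGATGNAA, the joint site of a C/EBP and an ATF protein, was in 3.5% of them and in none of the 4 members with an entry. Cebpg and Ddit3 held none of the 3 motifs, and the promoter stretches used here had no entry for Cebpd or Cebpe. A match is a description of the letters only.

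The study examined what deletion of Cebpa in hepatocytes does to the cell populations of the liver, by droplet-based single-cell RNA sequencing (10x Genomics 3' kit, version 3.1). Per the labels, 1 liver was of genotype Cebp KO and 1 of genotype Cebp WT, and both mice had been fed the 40% HFCFD, which is high in fat, fructose and cholesterol and promotes steatohepatitis, for 2 weeks. Deletion in this model comes from Cebpa fl/fl alleles with Cre under the albumin promoter, on C57BL/6N, and so follows albumin expression and leaves the floxed gene in other liver cells. The sources used here state neither the age of these mice nor the deleted stretch of Cebpa, and it is unknown if the counted 3' ends lie within that stretch.

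Both libraries were held in 1 joined matrix in which barcodes ended in 1 or 2, and no label ties either ending to a genotype. The libraries are therefore named library 1 and library 2, no genotype is given to either, and each value stands for 1 library with no replicate. All comparisons are of 1 library with the other, and no test of a genotype could be made. Library 1 had 17313 barcodes and 60048646 UMIs (unique molecular identifiers, each a captured mRNA molecule), and library 2 had 15003 barcodes and 52355243 UMIs, against up to 6000 cells aimed for per lane. The libraries stood apart in quality: the median share of mitochondrial UMIs was 4.07% in library 1 and 41.3% in library 2, and 11617 and 6088 barcodes passed a minimum of 500 UMIs and 200 genes and a mitochondrial limit of 25%. The libraries shared 81 barcode sequences, 34 of them among those kept.

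Kept droplets were placed in gates by marker genes, none of which was a family member: a non-parenchymal type needed enough of its markers and a lead over other types, and hepatocytes were the droplets in which no other type passed and hepatocyte markers made up at least 4% of UMIs. The 4% limit by itself may not keep out droplets of free RNA. Median shares of hepatocyte markers were 4.05% and 5.42% in the neutrophil gate of libraries 1 and 2, and 2.43% and 3.06% in T cells. The hepatocyte gate held 9001 droplets of library 1 and 3937 of library 2, and the Kupffer gate, of the resident macrophages of the liver, held 303 and 489. The 10 genes highest in the hepatocyte gate relative to the other droplets included Apoc2, Cyp2f2, Hamp, Apoc3 and Mat1a, and none of the 12 gate markers, whose summed level was 14306 to 61778 CPM (UMIs per 1000000) in the other named gates and 85391 and 112039 CPM in this one. In the Kupffer gate they were Cd5l, Clec4f, Vsig4 and Slc40a1 from its own markers and 4 C1q macrophage markers, which Kupffer cells also express, and in library 1 alone they were 3 of its own and 4 of the latter. The T, B, NK or ILC1 and neutrophil gates each had 5 to 7 of their own markers in the top 10. Droplets with no name (405 in library 1 and 58 in library 2) and with markers of more than 1 type (102 and 125) are given apart.

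Levels are UMIs per 1000000 UMIs of the gate (CPM), with exact Poisson 95% intervals, and shares have exact binomial (Clopper-Pearson) 95% intervals. They speak for counting error alone and carry no spread between mice. UMIs count molecules by their 3' end whatever the length of the gene, so CPM of different members were set side by side on this scale.

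Cebpa, the targeted gene, had its highest level in the Kupffer gate of both libraries, and the libraries differed in hepatocytes. In the hepatocyte gate it was at 1.05 CPM (0.695 to 1.53, 27 UMIs) in library 1 and at 99.5 CPM (94.2 to 105, 1299 UMIs) in library 2, a ratio of 94.4 between measured levels from which no free RNA was subtracted. The 27 UMIs of library 1 lay in 27 droplets, and no droplet held more than 1, whereas single droplets of library 2 held up to 13. In the Kupffer gate Cebpa was at 139 CPM (125 to 153) in library 1 and at 172 CPM (158 to 186) in library 2, 1.24-fold apart. The C1q macrophage gate (81.3 and 157 CPM) did not differ from the Kupffer gate beyond the intervals in either library. It held 33 and 32 droplets with 13 and 24 Cebpa UMIs, and 1 droplet of library 2 held 9 of the 24.

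Where the molecules of Cebpa lay differed accordingly. In library 1, 64.7% of 590 Cebpa UMIs in kept droplets were in the Kupffer gate (60.7 to 68.6%) and 4.58% in the hepatocyte gate (3.04 to 6.59%). In library 2, 25.9% of 2312 UMIs were in the Kupffer gate (24.1 to 27.7%) and 56.2% in the hepatocyte gate (54.1 to 58.2%).

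Lymphoid and erythroid cells, which are not known to use Cebpa, served to gauge free RNA. In library 2, the T, B, NK or ILC1 and erythroid gates had 20.9, 24.0, 20 and 23.8 CPM of Cebpa, and these 4 gates did not differ beyond their intervals. In library 1, the T and B gates had 3.77 (2.01 to 6.44) and 7.22 CPM (2.90 to 14.9). The NK or ILC1 and erythroid gates had 0 UMIs, with intervals that reach 11.3 and 3.16 CPM and limits of 9.20 and 2.57 CPM at 3 UMIs. The 1.05 CPM of the hepatocyte gate of library 1 was below its T cell level, so no expression is read from it, and the part of free RNA in it was not tested. Per 1000 Alb UMIs, Alb being the albumin gene, it was 0.0293 in that gate and 0.390 in T cells, against 2.54 and 1.83 in library 2. Endothelial cells stood above the lymphoid level in both libraries, at 39.2 CPM (26.8 to 55.3) and 77.7 CPM (58.4 to 101). The 9 Kupffer markers summed to 1197 and 666 CPM in that gate, with Clec4f at 136 and 142 CPM, against 64.9 and 125 CPM, with Clec4f at 12.2 and 26.9 CPM, in T cells and 15055 and 15470 CPM in Kupffer cells, and the part of Kupffer RNA in the endothelial level was not tested. Thinned to 1000 UMIs per droplet, 7.70% of 2571 hepatocyte-gate droplets of library 2 held a Cebpa UMI (6.70 to 8.80%), compared with 2.08% of 577 T cells, and in library 1 the shares were 0.0694% of 5761 and 0 of 625. Without thinning, 19.3% of hepatocyte-gate droplets and 9.69% of T cells of library 2 held a UMI, at median depths of 1391 and 4323 UMIs, and 0.30% and 2.08% in library 1, at 1169 and 4683 UMIs. Thinning left out 3240 and 1366 shallower hepatocyte-gate droplets.

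**Figure D1:**
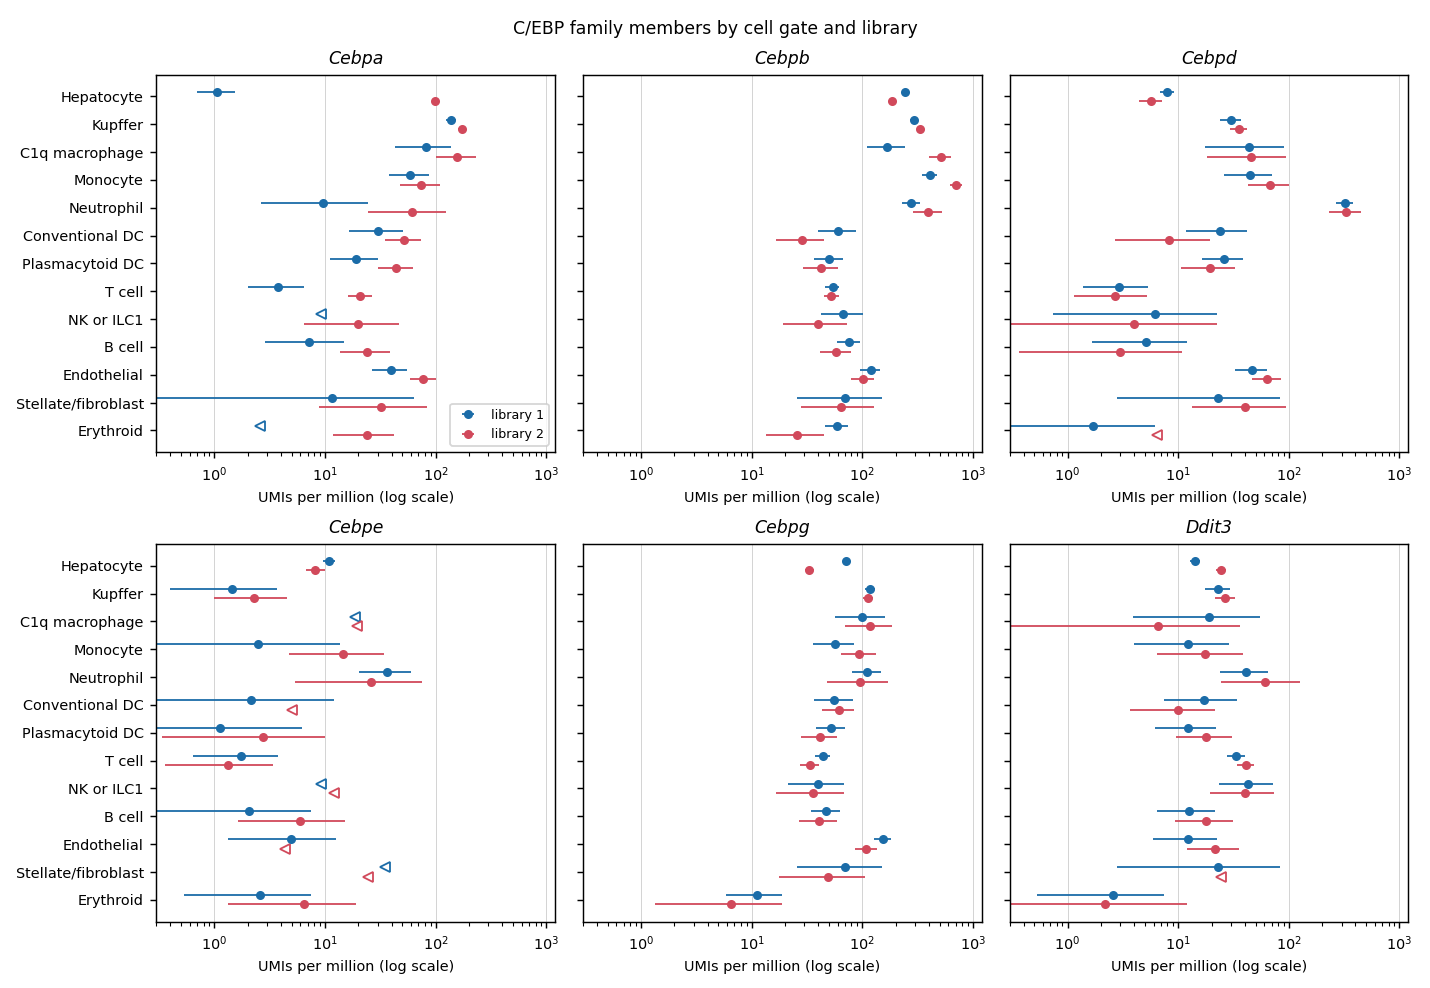
Level of each C/EBP member (CPM, log axis) in the 13 gates of at least 30 droplets in each library. Points are 1 library each (blue, library 1; red, library 2), bars are exact Poisson 95% intervals cut at the axis edge, and open triangles mark the limit of 3 UMIs where a member was at 0. Cebpa in the hepatocyte gate was at 1.05 and 99.5 CPM, and Cebpd stood out in the neutrophil gate at 320 and 330 CPM.

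Cebpb, the liver-enriched activator protein of the inflammatory response, had the most UMIs of the family in all kept droplets, 8958 in library 1 and 4668 in library 2. Its highest level was in monocytes, at 408 CPM (348 to 475) and 706 CPM (619 to 801), above the Kupffer gate at 291 CPM (271 to 312) and 335 CPM (316 to 355) beyond the intervals. The C1q macrophage gate was at 169 CPM (111 to 246) and 510 CPM (403 to 637), and in library 2 did not differ from monocytes beyond the intervals. A single droplet held 11 of its 27 UMIs in library 1 and 25 of its 78 in library 2, which the intervals do not take into account. In the hepatocyte gate Cebpb was at 243 CPM (237 to 249) in library 1 and 187 CPM (180 to 195) in library 2. The intervals were apart and the difference, 1.30-fold, was one that 34.4% of all genes tested in that gate reached or exceeded. T cells were at 53.9 and 52.5 CPM, and lay below hepatocytes, Kupffer cells, monocytes and neutrophils in both libraries. The hepatocyte level moved with the filter: without a filter on droplets it was 98.0 CPM in library 2, and with a minimum of 5000 UMIs it was 162 CPM in library 1.

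Cebpd, the acute phase partner of Cebpb, had its highest level in neutrophils of both libraries. It was at 320 CPM (268 to 379) in library 1 and 330 CPM (233 to 453) in library 2 in neutrophils, and the next gates were endothelial cells (46.6 CPM) in library 1 and monocytes (67.6 CPM) in library 2, both below neutrophils beyond the intervals. Single neutrophils held up to 5 Cebpd UMIs, and 58.6% of 128 (49.6 to 67.2%) and 55.3% of 47 (40.1 to 69.8%) held at least 1. In the Kupffer gate Cebpd was at 30.1 and 35.1 CPM and in hepatocytes at 7.96 CPM (6.91 to 9.14) and 5.67 CPM (4.45 to 7.12), with intervals that overlapped the B cell values of 5.16 (1.67 to 12) and 3.0 CPM (0.363 to 10.8). T cells were at 2.90 CPM (1.39 to 5.33) and 2.66 CPM (1.15 to 5.24), below hepatocytes beyond the intervals in library 1 and not in library 2. Erythroid cells of library 1, at 1.71 CPM (0.207 to 6.19), were also below.

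Cebpe, the granulocyte member, was the scarcest, with 352 and 155 UMIs in kept droplets. Neutrophils had 36.1 CPM (20.2 to 59.5, 15 UMIs) in library 1 and 26.0 CPM (5.37 to 76.1, 3 UMIs) in library 2. Most of its UMIs, however, came from the hepatocyte gate, 79.3% in library 1 and 69.0% in library 2. There it was at 10.9 CPM (9.65 to 12.2) and 8.20 CPM (6.72 to 9.91), with T cells at 1.74 CPM (0.638 to 3.79) and 1.33 CPM (0.362 to 3.41), below beyond the intervals in both. B cells were below in library 1, at 2.06 CPM (0.250 to 7.45), and overlapped hepatocytes in library 2, at 5.99 CPM (1.63 to 15.3). The erythroid gate, too, was below in library 1 (2.57 CPM, 0.530 to 7.51) and overlapped in library 2 (6.48 CPM, 1.34 to 18.9). The droplets with no name had 16.2 CPM in library 1 and 10.9 CPM in library 2. Neutrophils were above hepatocytes beyond the intervals in library 1, and not in library 2, where they had 3 UMIs.

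Cebpg, the partner without an activation domain, was spread over many gates with no single one ahead. In library 1, endothelial cells led at 153 CPM (127 to 182), followed by Kupffer cells at 117 CPM (105 to 131) and neutrophils at 111 CPM (80.9 to 147), and these did not differ beyond their intervals. In library 2 the same 3 gates were at 109, 112 and 95.5 CPM. Erythroid cells were low, at 11.1 and 6.48 CPM. In hepatocytes Cebpg was at 71.4 CPM (68.1 to 74.7) in library 1 and 33.3 CPM (30.2 to 36.5) in library 2, a 2.15-fold difference that 7.87% of genes tested in the gate reached or exceeded. The Kupffer levels of the libraries, 117 and 112 CPM, were 1.05-fold apart with overlapping intervals.

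Ddit3, the stress-induced member, had its highest levels, among gates of at least 30 droplets, in neutrophils, NK cells or ILC1 and T cells. T cells were at 33.6 CPM (27.8 to 40.3) and 40.9 CPM (34.0 to 48.8), the NK cell or ILC1 gate was at 43.0 and 40.0 CPM (14 and 10 UMIs), and neutrophils were at 40.9 and 60.8 CPM. B cells had 12.4 CPM (6.39 to 21.6) and 18.0 CPM (9.29 to 31.4), below T cells beyond the intervals in both libraries. In the hepatocyte gate Ddit3 was at 14.3 CPM (12.9 to 15.9) in library 1 and 24.4 CPM (21.8 to 27.3) in library 2, 1.71-fold apart with intervals that did not overlap. Kupffer cells were at 22.9 CPM (17.6 to 29.3) and 26.5 CPM (21.3 to 32.4), below T cells beyond the intervals in library 2 only.

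The balance is the share of each member in the family UMIs of a gate. The sum of family UMIs in hepatocytes was 349 CPM (342 to 356) in library 1 and 359 CPM (348 to 369) in library 2, with overlapping intervals. Its direction turned with depth: droplets under 5000 UMIs had 449 CPM (437 to 462) in library 1 and 404 CPM (386 to 421) in library 2, and deeper ones 268 CPM (259 to 276) and 329 CPM (316 to 342). The proportions of the members differed between the libraries. In library 1, Cebpb made up 69.7% of 8936 family UMIs (68.8 to 70.7%), Cebpg 20.5% (19.6 to 21.3%), Ddit3 4.11% and Cebpa 0.302% (0.199 to 0.439%). In library 2, Cebpb made up 52.3% of 4679 (50.8 to 53.7%), Cebpa 27.8% (26.5 to 29.1%), Cebpg 9.28% (8.46 to 10.1%) and Ddit3 6.82%. The share of Cebpa in library 1 went to 0 when the B cell level was subtracted, to 0.501% in droplets of at least 5000 UMIs and to 0.174% with a mitochondrial limit of 10%.

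Kupffer cells of both libraries had nearly the same balance. Cebpa was 23.1% (21.1 to 25.2%) of 1656 UMIs in library 1 and 25.2% (23.4 to 27.0%) of 2376 in library 2, Cebpb 48.4% and 49.1%, Cebpg 19.5% and 16.4%, and Cebpd 5.01% and 5.13%. In monocytes Cebpb dominated, with 70.0% (63.8 to 75.8%) and 72.5% (67.4 to 77.2%), and Cebpa was at 10.1% and 7.55%. Neutrophils were split between Cebpd, with 40.3% (35.0 to 45.8%) and 34.2% (25.5 to 43.8%), and Cebpb, with 34.8% and 40.5%. T cells were the gate in which Ddit3 took a large part, 24.0% (20.3 to 28.1%) and 26.9% (22.9 to 31.2%), alongside the NK cell or ILC1 gate at 27.5% and 28.6%. In endothelial cells Cebpg had 40.8% (35.3 to 46.6%) in library 1 and 29.2% (23.8 to 35.2%) in library 2, next to Cebpb at 31.7% and 27.3%. Conventional dendritic cells, with 31 and 47 droplets, had a Cebpa share of 15.9% (8.98 to 25.2%) and 32.3% (23.1 to 42.6%), with overlapping intervals. The Cebpa share was higher in library 2 beyond the intervals in other gates as well. It was 10.5% and 20.8% in endothelial cells, 11.8% and 26.2% in plasmacytoid dendritic cells, and 2.69% and 13.8% in T cells. Erythroid cells had 0 of 90 and 36.7% of 30 family UMIs. The part of free RNA in these shares was not tested.

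**Figure D2:**
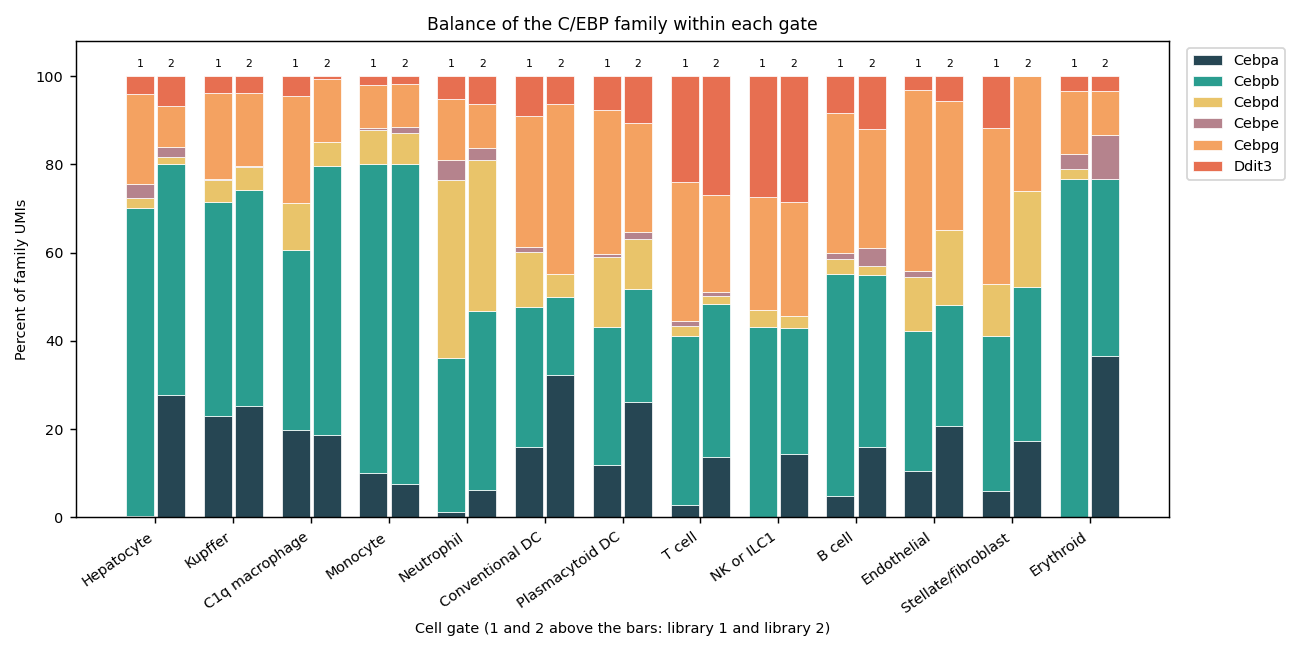
Share of each member in the family UMIs of a gate (percent, stacked to 100), with library 1 as the left and library 2 as the right bar of each pair. Cebpa makes up 0.302% and 27.8% in the hepatocyte gate and 23.1% and 25.2% in the Kupffer gate. Gates with under 100 family UMIs, such as stellate or fibroblast (17 and 23), are coarse.

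Droplets outside the gates had values of their own. The unnamed droplets of library 1 had Cebpb at 420 CPM (393 to 448), Cebpg at 97.4 CPM and Cebpa at 0.464 CPM (1 UMI), with Malat1, a nuclear RNA, at 16665 CPM against 1599 CPM in the hepatocyte gate of that library. With the hepatocyte-marker minimum lowered from 4% to 2% of UMIs, which brings such droplets into the gate, Cebpb was at 257 CPM and the share of Cebpa at 0.267% in library 1. In the unnamed droplets of library 2 Cebpb was at 232 CPM, and in the mixed droplets it was at 133 CPM in library 1 and 177 CPM in library 2.

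Droplets with a UMI of both Cebpa and Cebpb were counted in each gate, beside T cells as a gauge of free RNA. A UMI of each in a droplet can come from free RNA and is not by itself expression of both in 1 cell. Of T cells, 0.320% of 625 (0.0388 to 1.15%) in library 1 and 3.29% of 578 (1.99 to 5.09%) in library 2 held both. In Kupffer cells, 52.5% of 303 (46.7 to 58.2%) in library 1 and 51.9% of 489 (47.4 to 56.4%) in library 2 held a UMI of each. Hepatocyte-gate droplets of at least 5000 UMIs held both in 18 of 556 (3.24%, 1.93 to 5.07%) in library 1 and in 304 of 527 (57.7%, 53.3 to 61.9%) in library 2. T cells of at least 5000 UMIs held both in 2 of 256 (0.781%, 0.0948 to 2.79%) and in 8 of 170 (4.71%, 2.05 to 9.06%). Their median depths, 6714.5 and 7057.5 UMIs, were below those of the deep hepatocyte-gate droplets, 26550 and 12722 UMIs, so these shares are not at equal depth. Of the deep hepatocyte-gate droplets, 90.6% in library 1 and 20.9% in library 2 held Cebpb without Cebpa. In monocytes 30.6% of 49 and 34.0% of 50 held both, and in neutrophils 0.781% of 128 and 10.6% of 47. Such shares depend on depth as well as on level, with medians of 8662 and 6400 UMIs in Kupffer cells and 2502.5 and 1996 UMIs in neutrophils.

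When all kept droplets were clustered, hepatocytes of the libraries lay mostly in different clusters. Leiden clusters 1, 2 and 4, named hepatocyte by their highest marker score (as low as 0.151 in cluster 4), held 3375, 2478 and 1671 droplets of library 1 and 126, 43 and 10 of library 2, and clusters 9, 27 and 29 held 96, 5 and 15 of library 1 and 1468, 866 and 687 of library 2. A difference in the kinds of hepatocyte captured and one within them therefore cannot be told apart in the comparison of this gate.

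Set against all genes of the hepatocyte gate, 2 of the 6 members were at least 2-fold apart between the libraries with intervals that did not overlap. Cebpa was higher in library 2 and Cebpg in library 1. Of the 12708 genes of at least 20 UMIs in this gate, 6.54% passed the same rule, 3.90% with a higher level in library 2 and 2.64% in library 1, and the median log2 ratio was 0.00. The log2 ratio of library 2 over library 1 was 6.56 for Cebpa, 0.77 for Ddit3, -0.38 for Cebpb, -0.41 for Cebpe, -0.49 for Cebpd and -1.10 for Cebpg. The Cebpa ratio rests on a library 1 level at or below that of T cells, and its exact size is therefore uncertain. In the Kupffer gate none of the 5 members with at least 20 UMIs passed the rule, where 2.86% of 10921 genes did (0.925% higher in library 2). Of 4 members tested in T cells only Cebpa passed it (3.77 and 20.9 CPM, 5.56-fold), where 2.42% of 11163 genes did (1.08% higher in library 2). Beside it, summed hepatocyte markers were at 22830 CPM in the T cells of library 1 and 31344 CPM in those of library 2, and the part of free RNA in this difference was not tested.

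**Figure D3:**
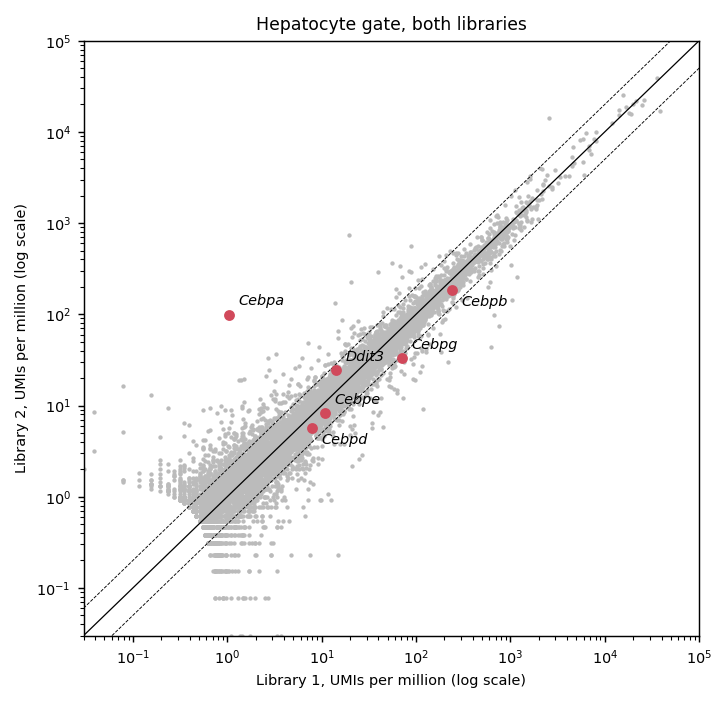
Level of each of 12708 genes in the hepatocyte gate (CPM, log axes), with library 1 across and library 2 upward. The solid line marks equal levels, dashed lines mark a 2-fold difference, red points are the 6 members and genes at 0 in a library sit on the axis edge. Cebpa lies far above the dashed line at 1.05 and 99.5 CPM, and Cebpg lies below it at 71.4 and 33.3 CPM.

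Depth and mitochondrial share differed between the libraries, so the members were also compared within bins of each. Over 6 bins of depth, Cebpa was higher in library 2 and Cebpb and Cebpg in library 1 in all 6, with intervals apart each time. Cebpg ran from 52.5 to 76 CPM in library 1 and from 25.9 to 41.4 CPM in library 2. Ddit3 was higher in library 2 in 5 of the 6 bins, with intervals apart in 3, and Cebpd and Cebpe had overlapping intervals in all 6. Over 4 bins of mitochondrial share up to the limit, the intervals were apart in all 4 for Cebpa and Cebpg, and in 2 for Cebpb and Ddit3, in the same directions.

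Cebpb differed with depth within each library. From the shallowest bin, of 500 to 1000 UMIs, over the next it went from 277 and 347 CPM in library 1 and from 205 and 250 CPM in library 2 to its peak in droplets of 2000 to 5000 UMIs. There it was at 391 CPM (370 to 412) in library 1 and 271 CPM (251 to 293) in library 2, and it was at 154 CPM (147 to 161) and 127 CPM (116 to 139) from 20000 UMIs up. The median mitochondrial share was 1.10% and 3.01% in the peak bin and 17% and 16.7% in the deepest. Malat1 was at 411, 1502 and 2183 CPM in the shallowest, peak and deepest bins of library 1 and at 438, 7729 and 1448 CPM in those of library 2. The share of hepatocyte markers was 11.1%, 7.25% and 8.42% in library 1 and 14.1%, 11.2% and 10.7% in library 2. Cebpa of library 2 had no such peak, with 77.7 CPM (61.4 to 97.0) in the shallowest bin, 90.0 CPM (78.6 to 103) at 2000 to 5000 UMIs and 110 CPM (99.4 to 120) from 20000 UMIs up, and its share of the family was 23.4% in the shallowest, 20.4% in the 2000 to 5000 and 36% in the deepest bin. The parts of depth, mitochondrial share and nuclear RNA in these levels were not tested.

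**Figure D4:**
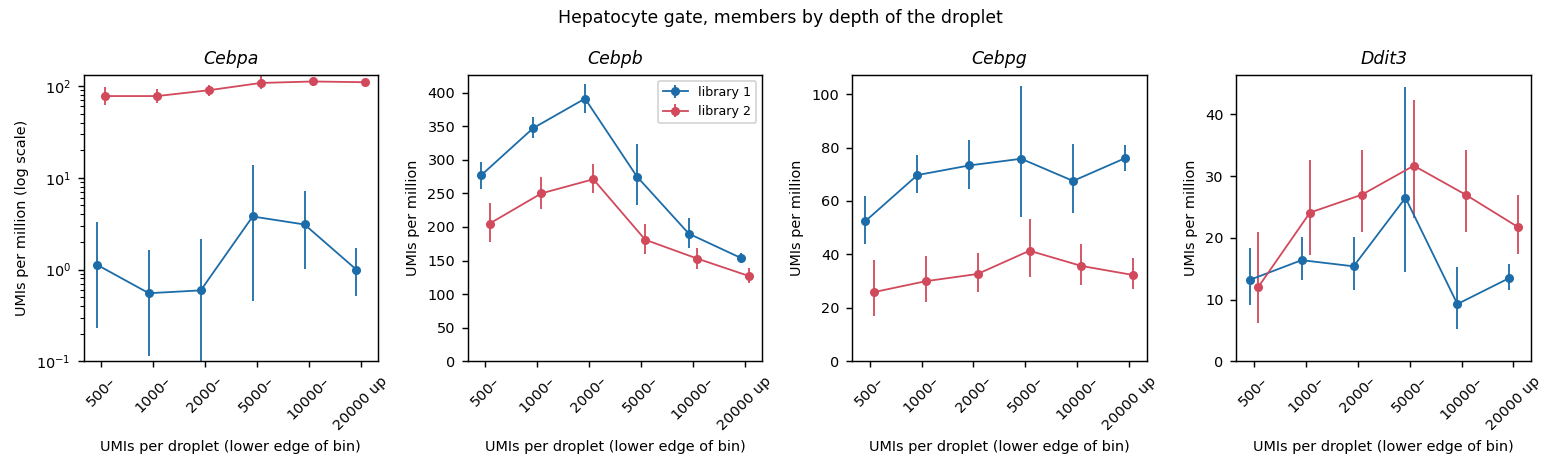
Cebpa, Cebpb, Cebpg and Ddit3 in the hepatocyte gate by UMIs per droplet (CPM, a log axis for Cebpa only; bars are exact Poisson 95% intervals cut at the axis edge). Blue is library 1 and red library 2; the lines of Cebpa, Cebpb and Cebpg do not cross, and those of Ddit3 do at the shallowest bin (13.2 and 12 CPM).

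Partners and regulators of the family were followed as a list of 19 genes, of which 17 had at least 20 UMIs in the hepatocyte gate. Of these, 5 were called higher in library 2 and 1 in library 1, against 3.90% and 2.64% of all genes of the gate, and the median log2 ratio was 0.20 against 0.00. Fos, an AP-1 subunit, was at 3.28 and 9.27 CPM in libraries 1 and 2, and Trib1, an adaptor that directs Cebpa protein to degradation through Cop1, at 7.03 and 19.6 CPM. The other 3 were Atf3, Nfil3 and Jun. Dbp, a PAR-domain leucine zipper factor of the circadian output, was at 88.8 and 32.4 CPM, and its relative Hlf was at 51.2 and 30.3 CPM without being called. Atf4, the usual partner of Ddit3 and Cebpg in the stress response, was at 49.9 and 49.0 CPM. In the Kupffer gate 0 of 18 genes tested were called higher in library 2, against 0.925% of all genes there. Higher in library 1 were 2, Dbp among them (18.9 and 5.46 CPM), against 1.93%.

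The stress-response list, which joins genes of the integrated stress response and CHOP with ER chaperones and regulators of the other arms of the unfolded protein response (Xbp1, Hspa5, Dnajb9 and Sdf2l1), had 12 of 15 genes tested and none called, with a median log2 ratio of 0.31. At 6.54% of all genes called, a count of 0 among 12 is no result about the list. Its extremes were Sdf2l1, an ER chaperone component, at 28.5 and 51.6 CPM, Trib3 at 1.17 and 1.99 CPM, Xbp1 at 137 and 97.0 CPM, and Chac1, a glutathione-degrading enzyme, at 4.49 and 3.98 CPM.

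The acute phase list had all 19 genes tested, 5 called higher in library 2 and none in library 1, against 3.90% and 2.64% of all genes, and a median log2 ratio of 0.35. Orm1, an orosomucoid, was at 19.6 and 743 CPM, and its near-identical neighbour Orm2 at 2.58 and 21.1 CPM, so that counts may be split between them. Lbp, Saa3 and Lcn2 were the other 3, and Hp, not called, was at 1028 and 1996 CPM. At the other end, Serpina3n was at 103 and 89.2 CPM and Saa1 at 255 and 244 CPM.

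Of 17 metabolic genes known as targets of Cebpa, all of them tested, 1 was called, Cyp7a1, the rate-limiting enzyme of bile acid synthesis, at 117 CPM in library 1 and 39.4 CPM in library 2, and the median log2 ratio was 0.17. A count of 1 in 17 is near the 6.54% of all genes and is no result about the list. Adh1 was at 598 and 426 CPM, Apoc3 at 6328 and 9685 CPM, and Ugt1a1, whose 3' exons are shared with other members of its cluster, at 1.64 and 2.76 CPM. The genes of signals that act on Cebpb and Cebpd gave 1 call among 10, also near that share, Socs3, the feedback inhibitor of IL-6 signalling, at 2.93 and 0.766 CPM, with a median of -0.28. Il1r1 was at 27.3 and 18.7 CPM, Il1rap at 95.8 and 115 CPM, and Tsc22d3, a glucocorticoid-induced gene, at 107 and 150 CPM.

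Of the granulocyte and monocyte targets, 9 of 16 had at least 20 UMIs in the hepatocyte gate, with a median log2 ratio of 0.25. Csf2ra was called higher in library 2 (1.02 and 2.61 CPM), and S100a9 (7.38 and 2.91 CPM) and S100a8 (5.66 and 2.45 CPM) in library 1, where neutrophils were 1.10% of kept droplets against 0.772% in library 2. Lyz2 was at 17.2 and 26.7 CPM. The Kupffer gate, 2.61% and 8.03% of kept droplets, had Csf2ra at 98.7 and 94.9 CPM and Lyz2 at 1447 and 1564 CPM. The part of free neutrophil or Kupffer RNA in these levels was not tested. In all, 18 of 90 members and list genes tested were called in the hepatocyte gate, against 6.54% of all genes. The 18 include Cebpa, and members and lists were chosen with earlier results of these data known. Genes of few UMIs also pass the rule less easily, so the count and the share are descriptions only. In droplets of at least 5000 UMIs 16 of 87 were called, 15 of them shared: Csf2ra, Jun and S100a8 were lost and Cd14 was gained. The share of all genes called in these deeper droplets was not computed, so this count has no matching background.

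**Figure D5:**
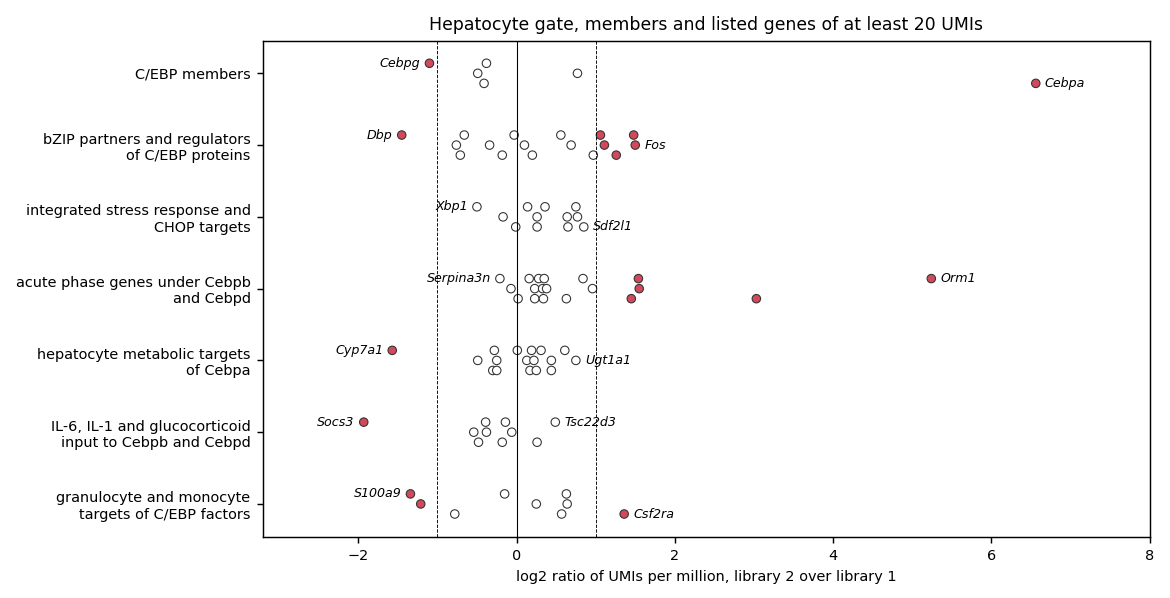
Log2 ratio of CPM in library 2 over library 1 in the hepatocyte gate for the members and the 6 gene lists, with 1 point per gene of at least 20 UMIs. Red points are at least 2-fold apart with intervals that do not overlap, dashed lines mark 2-fold, the first and last gene of each row are named, and vertical offsets within a row only separate the points. Cebpa is at 6.56 and Orm1 at 5.24.

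Genes whose levels followed each member over the 19 combinations of gate and library with at least 50 droplets were sought among 11488 genes, by Pearson correlation of log2(CPM + 10). The combinations share libraries and free RNA, and the values are descriptions. For Cebpa they were Colec12 (r = 0.83), Lipa (0.80) and Hpgd (0.79), each highest in the Kupffer gate. For Cebpb they were Ifitm3 (0.95), Snx10 (0.90) and Gorasp1 (0.88), the last at 0 to 9.44 CPM, under the 10 CPM added. Oasl2 (0.94), Cask (0.89) and Myadm (0.89) followed Cebpd, and Rnd1 (0.90), Sgms2 (0.87) and Msrb1 (0.84) followed Cebpe, all of them highest in neutrophils of library 1. Levels of Rnd1 were low, at 0 to 19.2 CPM. Anxa5, Mob1b and Ddx3x (each 0.94) followed Cebpg, and Myl6 (0.90), Psmd13 (0.88) and Heca (0.87) followed Ddit3, these last highest in the NK cell or ILC1 gate. Among the members, the closest pair was Cebpd and Cebpg (0.75), then Cebpb and Cebpg (0.69), and Cebpa was far from Ddit3 (0.05) and Cebpe (-0.05).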

How the data were processed

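Livers were dissociated by perfusion and digestion, and cells were purified on Percoll. Per the labels and the submitters' processing notes, the authors used Cell Ranger 7.1.0, bcl2fastq 2.20.0 and STAR 2.7.2a with build mm10, and deposited raw UMI counts per gene and barcode in 1 matrix for both libraries. The sources used here do not state cell calling, intron counting, strand setting or depth equalisation, each of which could move the levels. Of the deposited counts, 0 columns of per-sample values were left unused.

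Droplets of at least 500 UMIs and 200 genes with at most 25% mitochondrial UMIs were kept. A gate needed at least 3 detected markers of a type, with at least 1 marker UMI per 1000 (erythroid 50), and a lead of 2 markers over any other passing type, except between T and NK cells; Kupffer went before C1q macrophage. Droplets in which no other type passed were hepatocytes if at least 4% of UMIs came from 12 hepatocyte markers. Of 141 markers, 140 were in the gene table. Doublets were not removed: Scrublet (scanpy 1.11.5) marked 1 droplet in each library, under 0.5% and so without effect. UMIs were summed per gate and library, with exact intervals from scipy 1.17.1. Genes of at least 20 UMIs were called when CPM were at least 2-fold apart and 95% intervals did not overlap, a rule checked on simulated data. With 1 library per genotype and no link of library to genotype, no p-value was computed. Alternatives were other filters, gates, Leiden clusters (igraph 0.11.9), means over cells and subtraction of B cell levels. Named genes were all members, the 3 genes most like each by correlation, and the 2 largest and 2 smallest ratios of each list, plus other called or reference genes named after their values were seen (Atf3, Nfil3, Jun, Atf4, Lbp, Saa3, Lcn2, Hp, Malat1). Members and lists were chosen with earlier results of these data known.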

Additional observations from a re-analysis of the deposited data

Results flagged for a closer look

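Droplets with too high a mitochondrial share were not gated, and apart from the whole-library figures and the value without a filter they entered no value above. They held every member, above the limit of 3 UMIs (0.162 CPM in library 1 and 0.114 CPM in library 2). In the 5675 such droplets of library 1, Cebpa was at 3.78 CPM (2.95 to 4.78), Cebpb at 75.1 CPM (71.2 to 79.2) and Cebpg at 22.3 CPM (20.2 to 24.5). Cebpd was there at 3.24 CPM, Cebpe at 3.13 CPM and Ddit3 at 4.81 CPM. In the 8886 droplets of library 2, Cebpa was at 27.2 CPM (25.3 to 29.3), Cebpb at 50 CPM (47.4 to 52.8) and Cebpg at 8.63 CPM (7.55 to 9.82). Cebpd was at 2.80 CPM, Cebpe at 2.01 CPM and Ddit3 at 5.79 CPM. The balance of the family in them was that of no single cell type, since they were not gated: Cebpa made up 3.37% (2.63 to 4.24%) of family UMIs in library 1 and 28.2% (26.5 to 30%) in library 2, and Cebpb 66.9% and 51.8%.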

How the results depend on the processing

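Of 70 recomputed values of 7 results, 47 lay within the interval of the reported value (for the count, within 1.5 times) and 23 moved. The 47 include 6 without the droplets that Scrublet marked, at most 1 per library, which could hardly differ. Cebpb CPM in the hepatocyte gate of library 1 was 186 without a filter on droplets, 339 at a mitochondrial limit of 10%, 221 at 50%, 162 in droplets of 5000 or more UMIs, 316 as a mean over cells, 168 with the B cell level subtracted, 255 with Leiden clusters and 257 with a hepatocyte-marker minimum of 2%, which was chosen after seeing the data. In library 2 it was 98.0, 251, 151, 145, 223 and 129 under the first 6 of these, in that order. The Cebpa share of the family in hepatocytes was 0.174% and 21.3% (libraries 1 and 2) with a limit of 10%, 0.501% and 33.5% with 5000 UMIs, and 0 and 35.0% with the B cell level subtracted, and in library 2 it was 23.9% as a mean over cells. In Kupffer cells it was 29.1% and 27.6% with the B cell level subtracted. The cause of these shifts was not tested. Leaving out Kupffer droplets with over 5% hepatocyte markers, also chosen after seeing the data, gave 23.7% and 24.6%. In every setting run, the Cebpa share in hepatocytes was higher and Cebpb CPM lower in library 2. No paired analysis was possible because each genotype has 1 library and no test was made, and no replicate could be left out. Depth limits the small gates: a member at 0 in the NK cell or ILC1 gate may be at up to 9.20 CPM in library 1 and 12 CPM in library 2, by the limit of 3 UMIs.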
